A study of Mus musculus with 6 samples.

Results

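The genes described here encode 10 enzymes that modify collagen: the lysyl oxidases Lox, Loxl1, Loxl2, Loxl3 and Loxl4, the lysyl hydroxylases Plod1, Plod2 and Plod3, and the catalytic prolyl 4-hydroxylase subunits P4ha1 and P4ha2. They were chosen by symbol, as known members of these enzyme groups, with earlier results of these data known. P4ha3, another catalytic subunit gene, was not among them. All 10 were found among the 43074 gene symbols of the count table. They also passed the filter on low counts, which left 17433 genes for testing. The libraries came from C2C12, a mouse skeletal myoblast line of wild-type genotype that fuses into myotubes when serum is changed. The 3 groups held 2 libraries each: untreated cells at day 0, cells kept until day 4 in horse-serum differentiation medium with the solvent DMSO, and cells kept likewise with 1 mM 4-PBA (4-phenylbutyric acid), which is known to act as a chemical chaperone and to inhibit histone deacetylases. Day 0 and day 4 differ in medium, in time and in the presence of DMSO, and these cannot be told apart. Nothing in the labels says whether replicates were separate cultures, so p-values measure only the spread between these libraries, which may be technical.

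Total counts ranged from 47908926 to 74697397 per library, and the 10 enzymes together held 77859 to 163708 of them. Of the myotube markers Myog, Myh3, Ckm, Tnnt3 and Acta1, 5 of 5 rose with DMSO against day 0, and their summed level went from between 72.8 and 76.5 CPM (counts per 1e6 counts, TMM-scaled) to between 4483 and 4768. The 4 myoblast markers Myod1, Myf5, Des and Cdh15 had counts in all libraries, with 3 higher and 1 lower at day 4. Of the markers of other cells, summed endothelial and macrophage markers stayed at or under 0.883 and 5.70 CPM. The 4 adipocyte and 4 osteoblast markers summed to 7.45 to 12.2 and 51.9 to 81.3 CPM, both highest at day 0, with 0 to 2 adipocyte and 0 or 1 osteoblast markers without a count in a library. Nearly all of these sums came from Cebpa (mean 11.6 CPM at day 0) and Runx2 (80.0 CPM). The means of Adipoq, Plin1, Fabp4, Bglap, Sp7 and Ibsp were each at or under 0.19 CPM in every group. Of the 4 fibroblast markers, Dcn and Ly6a rose with DMSO. The mean of Dcn went from 8.15 to 281 CPM and that of Ly6a from 162 to 315 CPM. Pdgfra fell (by 0.32 on the log2 scale) and Thy1 had at most 2 counts in any library. The summed level of the 4 was 181 to 188 CPM at day 0, 593 to 621 with DMSO and 612 to 639 with 4-PBA. Fewer cells of a type and less RNA per cell cannot be told apart in such bulk libraries, and the part of these markers in the changes below was not tested.

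Collagen chains are modified on prolines and lysines inside the endoplasmic reticulum before they fold into a triple helix. Prolyl 4-hydroxylases, tetramers of a catalytic alpha subunit and the shared beta subunit P4hb, make the hydroxyproline that keeps the helix stable. Lysyl hydroxylases make hydroxylysine, which carries sugars and gives stable crosslinks, and outside the cell the copper-dependent lysyl oxidases convert lysine and hydroxylysine to the aldehydes from which crosslinks form. In muscle these crosslinks set the stiffness of the matrix around fibres.

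Between day 0 and day 4 with DMSO every one of the 10 enzymes changed by the edgeR quasi-likelihood test with Benjamini-Hochberg adjustment (adjusted p under 0.05). Of them, 8 rose and 2, Loxl3 and Plod3, fell, with the libraries of the groups not overlapping for any. Of all tested genes 66.3% were called in this comparison and 81.9% had groups that did not overlap, so that neither count says much of these enzymes. Their median log2 fold change was 0.41, against 0.023 over all tested genes. Loxl1, Plod2 and Loxl2 had the largest rises, and each lysyl enzyme family held both rising and falling members.

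**Figure D1:**
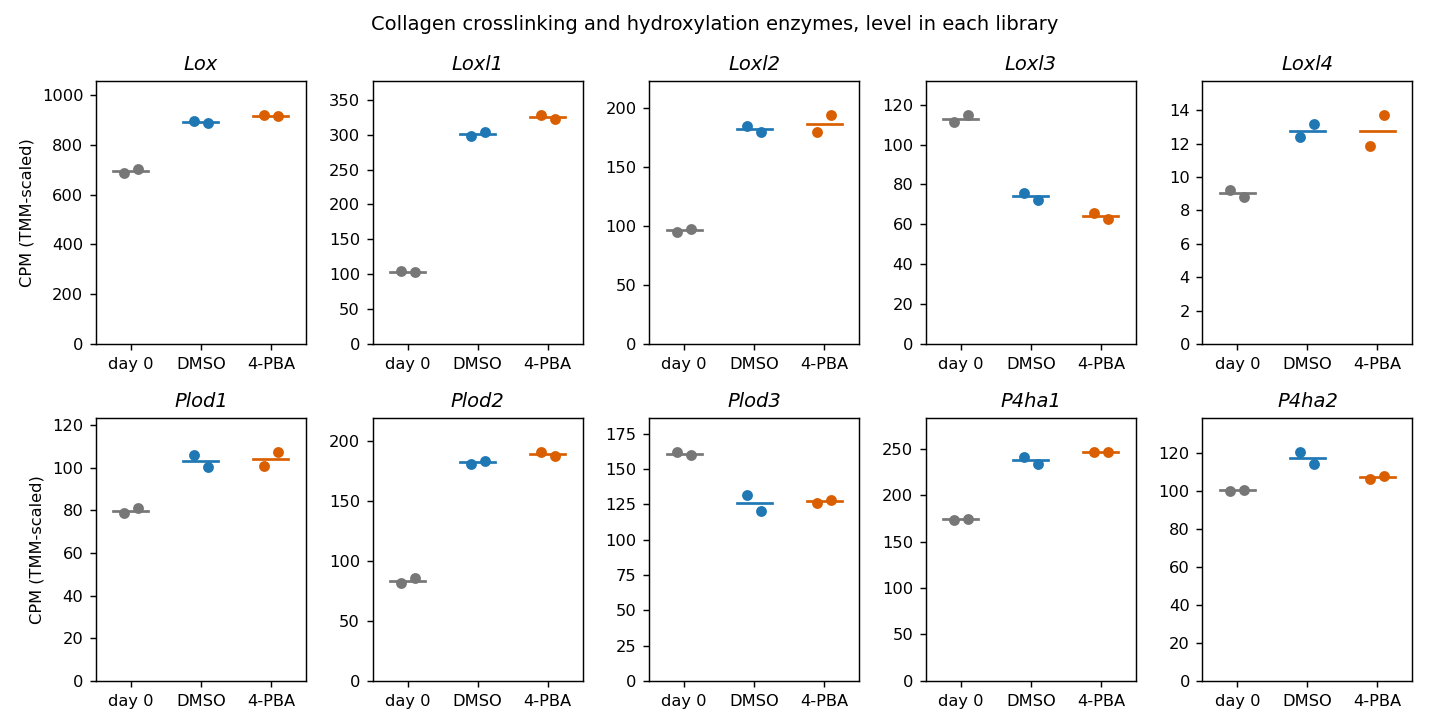
Level of each enzyme in every library, in CPM after TMM scaling (vertical axes start at 0), for day 0, DMSO at day 4 and 4-PBA at day 4. Points are the 2 libraries of a group and lines their mean; Loxl1 rises from about 104 to 301 CPM with DMSO while Loxl3 falls from 113 to 74.0.

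Lox, the founding lysyl oxidase and the most abundant of the 5 per exon length in every group, stood at 687 and 702 CPM at day 0, 894 and 886 CPM in the DMSO libraries and 918 and 914 CPM in the 4-PBA libraries. Both day 4 groups were above day 0. The log2 fold change with DMSO was 0.36 (SE 0.0274, adjusted p 7.21e-14). Loxl1, an oxidase tied to elastic fibres, stood at 104 and 103 CPM at day 0, 298 and 304 CPM in the DMSO libraries and 328 and 323 CPM in the 4-PBA libraries. It rose 2.90-fold with DMSO, a log2 fold change of 1.54 (SE 0.0319, adjusted p 2.84e-30), the largest change among the enzymes, and its fold change stood at the 90.9th percentile of all tested genes.

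Loxl2, Loxl3 and Loxl4 form the other branch of the family, with scavenger receptor domains ahead of the catalytic domain. Loxl2, which acts on the type IV collagen of basement membranes, stood at 94.9 and 97.8 CPM at day 0, 185 and 179 CPM in the DMSO libraries and 180 and 194 CPM in the 4-PBA libraries. The ranges of the DMSO and 4-PBA libraries overlapped, and both groups lay above day 0 (log2 fold change with DMSO 0.92, SE 0.0369, adjusted p 1.64e-21). Loxl4 was the scarcest of the 5, at 9.22 and 8.83 CPM at day 0, 12.4 and 13.2 CPM in the DMSO libraries and 11.9 and 13.7 CPM in the 4-PBA libraries. It rose with DMSO by 0.50 on the log2 scale (SE 0.0929, adjusted p 1.23e-05), the least precise of the 10 fold changes, resting on 448 to 976 counts in each library of the 6.

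Loxl3 went the other way. It stood at 111 and 115 CPM at day 0, 75.6 and 72.4 CPM in the DMSO libraries and 65.9 and 62.8 CPM in the 4-PBA libraries, so that the groups followed each other downwards with no overlap. With DMSO it fell by 0.61 on the log2 scale (SE 0.0407, adjusted p 1.73e-15). Of the 4603 exonic bases of Loxl3 in GENCODE M21, 535 are shared with Htra2, a mitochondrial protease gene on the opposite strand. Whether counting used strand is not given in the sources used here, so reads of the pair cannot be told apart there. Htra2, named after its values were seen, fell with DMSO by 0.59 on the log2 scale (SE 0.0447). Between 4-PBA and DMSO its log2 fold change was -0.045 (SE 0.0454, adjusted p 0.707), where that of Loxl3 was -0.20. The part of the overlap in either value was not tested. Smaller overlaps with opposite-strand antisense genes were 301 bases for Loxl2 and 30 for Lox.

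Plod2, the lysyl hydroxylase of the telopeptides at the ends of the collagen molecule, stood at 81.8 and 85.8 CPM at day 0, 181 and 183 CPM in the DMSO libraries and 191 and 188 CPM in the 4-PBA libraries. It rose 2.17-fold with DMSO, a log2 fold change of 1.12 (SE 0.035, adjusted p 4.70e-25). Plod1, which hydroxylates lysines within the helix, stood at 78.7 and 80.9 CPM at day 0, 106 and 100.4 CPM in the DMSO libraries and 101 and 107 CPM in the 4-PBA libraries. Its rise was smaller (log2 fold change 0.37, SE 0.0405, adjusted p 5.28e-10). Plod2 shares 346 exonic bases with a gene model on the opposite strand, Gm38391.

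Plod3, which also transfers the sugars onto hydroxylysine, fell. Its levels were 162 and 160 CPM at day 0, 132 and 120 CPM in the DMSO libraries and 126 and 128 CPM in the 4-PBA libraries. The 4-PBA libraries lay between the DMSO libraries. With DMSO it fell by 0.35 on the log2 scale (SE 0.0376, adjusted p 5.44e-10). Plod3 too shares exonic bases, 529 of 4519, with a protein-coding gene on the opposite strand, Znhit1, a subunit of a chromatin remodeller. Znhit1, also named after its values were seen, fell by 0.33 (SE 0.0588) in the same comparison, and the part of the overlap was not tested.

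P4ha1, the main catalytic subunit of prolyl 4-hydroxylase in most cells, stood at 173 and 175 CPM at day 0, 242 and 234 CPM in the DMSO libraries and 246 and 246 CPM in the 4-PBA libraries. It rose with DMSO by 0.45 on the log2 scale (SE 0.0317, adjusted p 6.97e-15). P4ha2, its paralog, rose less, from 100.1 and 100.6 CPM at day 0 to 121 and 114 CPM with DMSO, a log2 fold change of 0.23 (SE 0.0372, adjusted p 2.10e-06). With 4-PBA it stood at 106 and 108 CPM, between the other groups and overlapping neither. The remaining catalytic subunit gene, P4ha3, was scarce and fell with DMSO from 18.2 ± 0.618 CPM to 8.41 ± 0.420 CPM (SD, n = 2), with a log2 fold change of -1.11 (SE 0.0866, edgeR adjusted p 1.18e-13). The beta subunit P4hb, which is also the general disulfide isomerase, fell slightly, by 0.18 on the log2 scale (SE 0.0293, adjusted p 2.17e-06). Per exon length, the 3 alpha subunits together amounted to 25.5% and 25.4% of P4hb at day 0 and to 35.2% and 35.8% with DMSO. The size of these percentages depends on the lengths chosen.

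Promoter windows from RefSeq (build GRCm38.p6, 250 bases before to 50 bases after the annotated start) were at hand for 5 of the 10 genes, Loxl4, Plod1, Plod3, P4ha1 and P4ha2. The prolyl hydroxylase pair is shown because P4ha2 was called lower with 4-PBA and P4ha1 was not called, and Plod1 with Plod3 because they changed in opposite directions between day 0 and DMSO. Both P4ha genes are known targets of hypoxia-inducible factors, whose core sites read ACGTG or GCGTG. Capitals mark every match to these on either strand. P4ha1 lies on the plus strand at chr10:59323046-59323345 and P4ha2 on the plus strand at chr11:54100674-54100973. Plod1 lies on the minus strand at chr4:147936727-147937026 and Plod3 on the plus strand at chr5:136986769-136987068. All are written 5′ to 3′ along the gene.
P4ha1: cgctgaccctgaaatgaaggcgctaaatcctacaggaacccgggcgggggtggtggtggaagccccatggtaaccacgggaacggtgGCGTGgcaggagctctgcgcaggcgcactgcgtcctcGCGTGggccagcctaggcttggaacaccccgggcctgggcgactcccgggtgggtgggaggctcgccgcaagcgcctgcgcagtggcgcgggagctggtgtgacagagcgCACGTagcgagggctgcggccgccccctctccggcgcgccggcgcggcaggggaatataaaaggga
P4ha2: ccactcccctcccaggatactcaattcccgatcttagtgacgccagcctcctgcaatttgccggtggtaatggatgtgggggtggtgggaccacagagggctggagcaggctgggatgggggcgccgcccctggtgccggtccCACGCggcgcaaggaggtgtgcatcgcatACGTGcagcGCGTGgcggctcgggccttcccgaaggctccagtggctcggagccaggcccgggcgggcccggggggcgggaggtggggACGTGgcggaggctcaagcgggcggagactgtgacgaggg
Plod1: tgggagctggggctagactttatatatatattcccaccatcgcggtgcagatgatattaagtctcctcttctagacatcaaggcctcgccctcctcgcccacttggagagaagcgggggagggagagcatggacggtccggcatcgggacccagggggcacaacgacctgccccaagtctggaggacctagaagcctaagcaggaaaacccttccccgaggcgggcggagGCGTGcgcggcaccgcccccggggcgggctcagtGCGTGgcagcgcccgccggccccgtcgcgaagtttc
Plod3: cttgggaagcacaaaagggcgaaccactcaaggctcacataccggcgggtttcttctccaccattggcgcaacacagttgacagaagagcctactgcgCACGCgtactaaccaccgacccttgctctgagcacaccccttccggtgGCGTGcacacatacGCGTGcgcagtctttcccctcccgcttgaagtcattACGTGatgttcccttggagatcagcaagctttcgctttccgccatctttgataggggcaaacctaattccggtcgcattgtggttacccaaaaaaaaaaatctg

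The letters ACGTG occurred in the windows of P4ha1 (1 match), P4ha2 (2 matches) and Plod3 (1 match) and not in those of Plod1 and Loxl4. They were found in 19.6% of all 32851 windows in the table. GCGTG, found in 32.4% of windows, had 2 matches each in P4ha1, P4ha2 and Plod1, 3 in Plod3 and 1 in Loxl4. The P4ha1 and P4ha2 windows each held 70.3% G and C. TATAAA, found in 13.6% of windows, had 1 match in P4ha1 and 1 in Plod1. The P4ha1 match began at base 290 of its window, past the annotated start. That of Plod1 lay on the opposite strand, 232 bases before the start. The study's title names Egr-1, and GCGGGNGCG was searched as a form of the GC-rich sites that its family binds. That motif was in 5.8% of windows and in none of these 5, which says only that these letters are not in the windows searched. Forms of the site with T in place of the G after GCG were not searched.

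Libraries of the day 4 groups differ in the compound given. Loxl1 was higher with 4-PBA, and Loxl3 and P4ha2 were lower, each by at most 0.20 on the log2 scale. The other 7 enzymes were not called. In this comparison 4.9% of all tested genes were called. The median log2 fold change of the 10 enzymes was 0.025, against 0.0021 over all tested genes, and the libraries of the groups did not overlap for 6 of them and for 45.5% of all tested genes. This comparison shares its DMSO libraries with that of DMSO and day 0.

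Loxl1 stood 1.08-fold higher with 4-PBA, a log2 fold change of 0.11 (SE 0.0305, adjusted p 0.0238). Loxl3 had the largest change with the drug, to 0.87 times its DMSO level (log2 fold change -0.20, SE 0.0415, adjusted p 0.00218). P4ha2 came to 0.914 times its DMSO level (log2 fold change -0.13, SE 0.037, adjusted p 0.0316). For Loxl1 and Loxl3 the drug difference had the sign of the DMSO change from day 0, and for P4ha2 the opposite sign. Each of these calls was lost when 1 library was left out: Loxl3 was not called without 4-PBA replicate 2 (adjusted p 0.113), and Loxl1 was not called without either 4-PBA library (0.282 and 0.153), without DMSO replicate 1 (0.063) or without day 0 replicate 1 (0.0514). P4ha2 was not called in 8 of 15 alternative analyses, with adjusted p-values up to 0.282. With 2 libraries against 2, an exact permutation test over the libraries can give no two-sided p under 0.333, so that these calls depend on the spread that edgeR shares across genes.

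**Figure D2:**
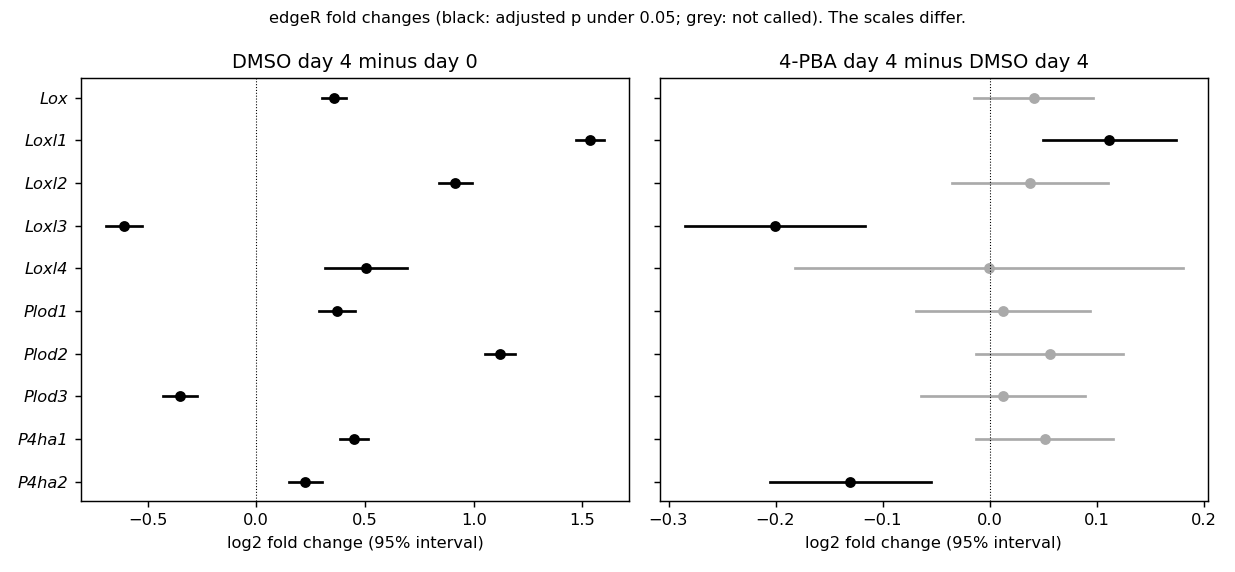
Log2 fold changes of the 10 enzymes with 95% intervals from edgeR, for DMSO at day 4 against day 0 (left) and 4-PBA against DMSO at day 4 (right, on a narrower scale). Black marks called genes and grey marks genes not called; all 10 are called on the left and Loxl1, Loxl3 and P4ha2 on the right.

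For the enzymes not called, the 95% intervals give the sizes of drug difference that these libraries leave possible. The interval of the log2 fold change was -0.014 to 0.097 for Lox, -0.035 to 0.11 for Loxl2 and -0.18 to 0.18 for Loxl4, the last being the widest. It was -0.069 to 0.093 for Plod1, -0.012 to 0.12 for Plod2 and -0.064 to 0.089 for Plod3. That of P4ha1 was -0.012 to 0.12, and P4ha1 stood at a log2 fold change of 0.051 where P4ha2 stood at -0.13. Lox, Plod2 and P4ha1 had both 4-PBA libraries above both DMSO libraries without being called, with adjusted p-values of 0.491, 0.428 and 0.440.

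With 4-PBA at day 4 against day 0, 10 of 10 enzymes were called again, 8 higher and 2 lower, where 65.6% of all tested genes were called. Day 0 is shared with the DMSO comparison, so the values are given side by side. The log2 fold change was 1.65 with 4-PBA and 1.54 with DMSO for Loxl1, and 1.18 and 1.12 for Plod2. It was 0.95 and 0.92 for Loxl2, 0.50 and 0.45 for P4ha1, and 0.40 and 0.36 for Lox. For Loxl3 it was -0.81 and -0.61, and for Plod3 -0.34 and -0.35. For P4ha2 it was 0.095 (SE 0.0374, adjusted p 0.0256) with 4-PBA and 0.23 with DMSO. The 4-PBA value of P4ha2 was not called in 7 of 15 alternatives, among them fits without either day 0 or either 4-PBA library. For Loxl4 it was 0.50 and 0.50, and for Plod1 0.38 and 0.37.

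The composition of each family was compared as counts per kb of exon within a library, which does not depend on library scaling. Lox held 65.6% and 65.8% of the lysyl oxidase family at day 0, 56.5% and 56.2% in the DMSO libraries and 56.2% and 55.9% in those with 4-PBA. Loxl1 made up 14.4% and 14.0% at day 0, 27.3% and 28.0% in the DMSO libraries and 29.1% and 28.6% in those with 4-PBA. The share of Loxl1 was thus higher in each day 4 library than in either day 0 library. Loxl3 went from 11.1% ± 0.101 at day 0 to 4.87% ± 0.136 with DMSO and 4.09% ± 0.139 with 4-PBA (SD, n = 2), while Loxl2 went from 8.06% ± 0.065 to 10.2% ± 0.194 and 10.1% ± 0.531. Loxl4 stayed near 0.9% in the 3 groups, at 0.968%, 0.918% and 0.887%.

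In the lysyl hydroxylase family the leading gene changed. Plod3 held 57.2% and 55.9% at day 0, 37.2% and 35.3% in the DMSO libraries and 35.6% and 35.9% in those with 4-PBA. Plod2 held 24.2% and 25.2% at day 0, 42.9% and 45.1% in the DMSO libraries and 45.3% and 44.1% in those with 4-PBA. Plod2 was thus the most abundant of the 3 per length in each day 4 library and Plod3 in each day 0 library. Plod1 stayed between 18.57% and 20.04%. Of the P4ha1 and P4ha2 pair, P4ha1 held 72.4% in both day 0 libraries, 75.3% and 75.6% in the DMSO libraries and 77.8% and 77.6% in those with 4-PBA, with no overlap between groups. The level of this share depends on the length chosen: with the longest transcript as the length P4ha1 held 56.7%, 60.5% and 63.5%, in the same order. These differences in share were not tested beyond the overlap of libraries. Levels of single genes did not overlap for 81.9% of all tested genes between DMSO and day 0, and for 45.5% between 4-PBA and DMSO.

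**Figure D3:**
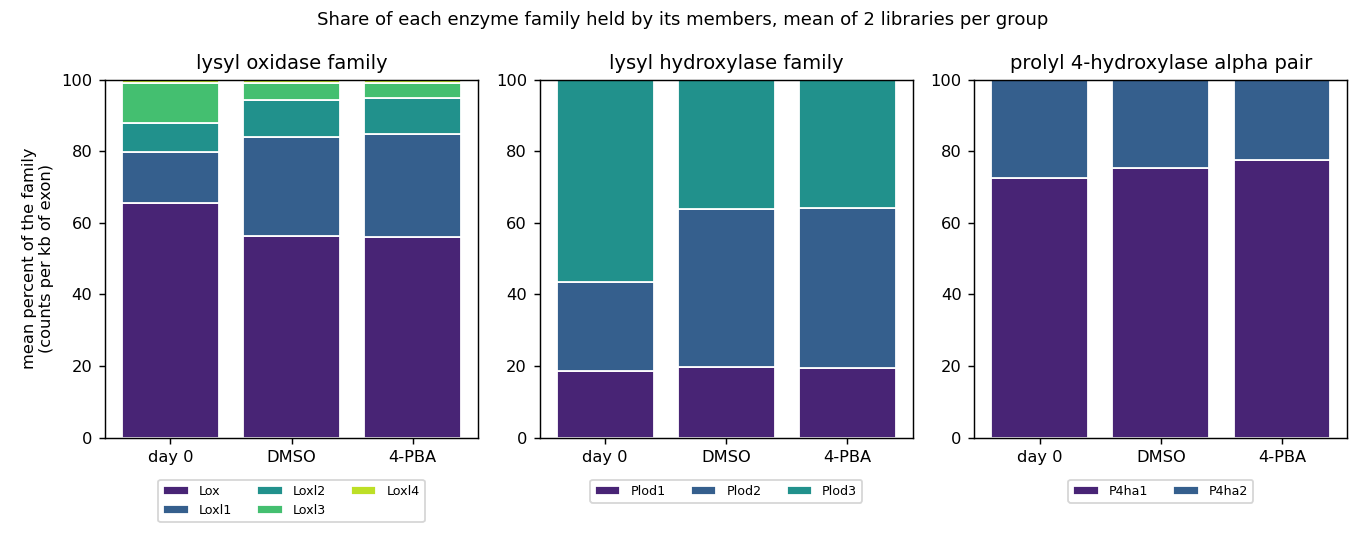
Stacked bars of the mean share of each enzyme in its family, in percent of counts per kb of exon, at day 0, DMSO day 4 and 4-PBA day 4 (2 libraries each). Loxl1 goes from 14.2% to 27.6% and 28.8% of the lysyl oxidases, and Plod2 from 24.7% to 44.0% and 44.7% of the lysyl hydroxylases.

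Of 11 tested fibrillar collagen and elastin genes, 10 rose with DMSO and none fell, with a median log2 fold change of 1.34, against 0.41 for the enzymes. Over all tested genes 33.8% were called higher and 32.6% lower with DMSO against day 0. Between 4-PBA and DMSO these shares were 2.13% and 2.78%. They are the background for the counts of each list below. Col1a1 and Col1a2, the chains of type I collagen, rose by log2 fold changes of 2.34 (SE 0.0343) and 0.68 (SE 0.0302), and Col3a1 and Col5a3 by 1.34 (SE 0.0253) and 1.68 (SE 0.0319), with adjusted p-values between 1.86e-31 and 1.94e-18. The summed level of the 10 enzymes was 1602 and 1628 CPM at day 0, 2245 and 2207 CPM in the DMSO libraries and 2274 and 2285 CPM in the 4-PBA libraries. Set against the summed fibrillar collagens and elastin, this came to 35.01 and 35.19 enzyme reads per 100 substrate reads at day 0. The ratio was 19.6 and 19.9 in the DMSO libraries, and 20.7 and 20.5 in those given 4-PBA. Collagens outside the fibrillar list, type IV among them, were not in the substrate sum. The ratio is one of reads and not of molecules. With 4-PBA against DMSO, 1 of the 11 was called: Col11a1, a minor fibrillar chain, was higher (13.2 ± 0.284 and 18.9 ± 1.73 CPM with DMSO and 4-PBA; log2 fold change 0.51, SE 0.0868, adjusted p 2.00e-04). The log2 fold change was -0.027 (adjusted p 0.766) for Col1a1, -0.0095 (0.928) for Col1a2 and -0.074 (0.188) for Col5a3. Col1a1 was called lower without DMSO replicate 2, at -0.09 (adjusted p 0.0191), and was at 0.039 without DMSO replicate 1. Eln, the elastin gene, was at 0.586 ± 0.067 CPM with DMSO and 0.958 ± 0.125 CPM with 4-PBA, a difference that was not called (adjusted p 0.327).

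Of 15 tested procollagen modification and folding partners, 8 rose and 3 fell with DMSO (median log2 fold change 0.076). P3h1, a collagen prolyl 3-hydroxylase, rose by 0.76 (SE 0.0429, adjusted p 1.28e-17) and Serpinh1, the collagen chaperone HSP47, by 0.41 (SE 0.0275, adjusted p 2.18e-15). None of the 15 was called between 4-PBA and DMSO by edgeR, DESeq2 or limma, and 3 had an unadjusted edgeR p under 0.05. The lowest adjusted p-values were 0.0581 for Crtap, the partner of P3h1, at a log2 fold change of 0.14, 0.142 for P4ha3 (0.24) and 0.182 for P3h4 (0.090). Without DMSO replicate 2 both Crtap (log2 fold change 0.17) and P3h4 (0.16) were called higher, and Crtap was called in 3 further alternatives.

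Among genes of procollagen processing and fibril assembly, 8 of 13 tested rose and 3 fell with DMSO (median log2 fold change 0.89). Sparc, a collagen-binding glycoprotein, rose by 1.42 (SE 0.0256, adjusted p 4.95e-32). Between 4-PBA and DMSO 2 were higher and 2 lower. Fbln5, a fibulin of elastic fibres, stood at 69.3 ± 5.09 CPM with DMSO and 83.7 ± 0.923 CPM with 4-PBA (SD, n = 2). Its log2 fold change was 0.27 (edgeR adjusted p 4.50e-04). Pcolce, the enhancer of procollagen C-proteinase, stood at 333 ± 3.11 and 370.2 ± 0.632 CPM (log2 fold change 0.15, edgeR adjusted p 9.78e-04). Fn1, fibronectin, was lower by 0.21 (SE 0.0259, adjusted p 1.83e-06), and so was Adamts14, a procollagen N-proteinase, by 0.14 (SE 0.0356, adjusted p 0.0136). The Adamts14 call was lost without either 4-PBA library or DMSO replicate 1.

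**Figure D4:**
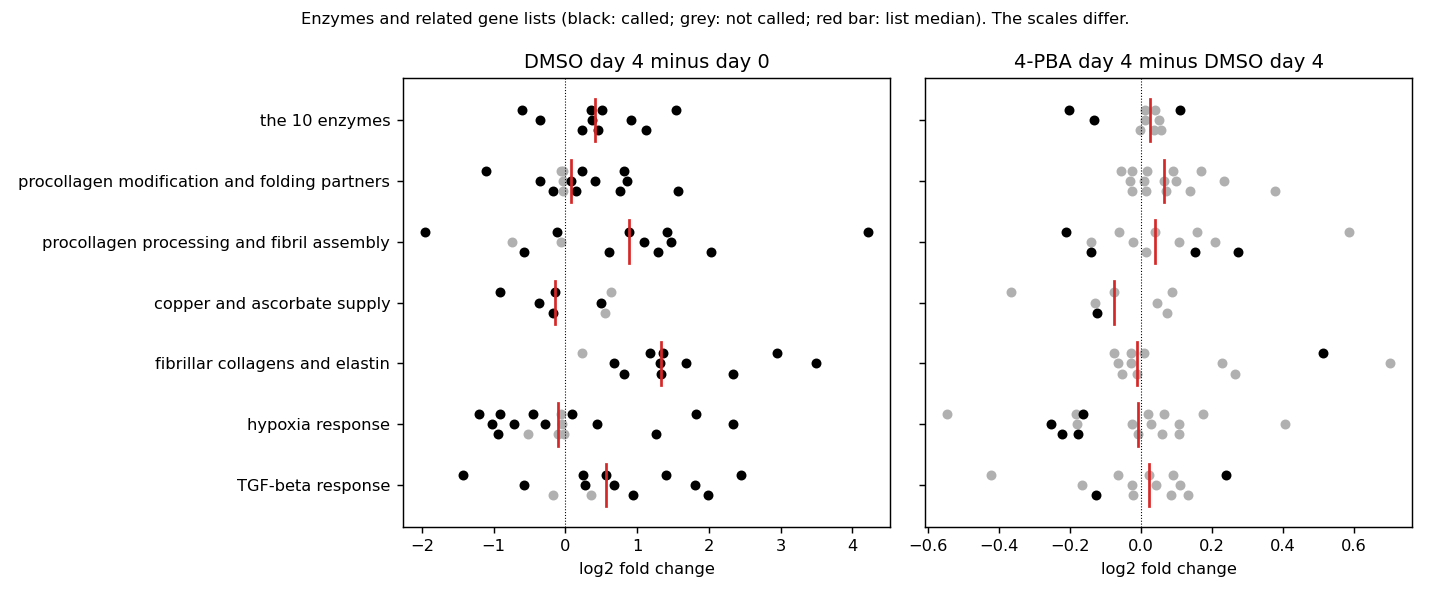
Log2 fold changes of the 10 enzymes and of the tested genes of 6 related lists, for DMSO at day 4 against day 0 (left) and 4-PBA against DMSO (right, on a narrower scale). Each point is a gene, black where called, and the red bar is the list's median; the collagens and elastin lie right of 0 on the left, with a median of 1.34, and the enzymes have a median of 0.41.

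Copper is the cofactor of the lysyl oxidases, and ascorbate keeps the hydroxylases active. Of 7 tested genes for copper and ascorbate supply, 1 rose and 4 fell with DMSO (median log2 fold change -0.14). Atp7a, the pump that loads copper onto lysyl oxidases in the secretory pathway, rose by 0.50 (SE 0.0494, adjusted p 5.30e-11), and Gsto1, which can reduce dehydroascorbate, fell by 0.91 (SE 0.0421, adjusted p 4.33e-20). With 4-PBA the ascorbate transporter Slc23a2 was lower (log2 fold change -0.12, SE 0.0372, adjusted p 0.0485), a call lost in most alternatives, 12 of 15. Atp7a (-0.13, adjusted p 0.126) and the copper importer Slc31a1 (0.089, adjusted p 0.358) were not called.

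Several of the enzymes are known targets of hypoxia-inducible factors and of transforming growth factor beta (TGF-beta), so response genes of both were read beside them. Of 17 tested hypoxia response genes, 5 rose and 7 fell with DMSO (median log2 fold change -0.096). Bhlhe40 and Egln3 rose by 1.83 (SE 0.032) and 1.26 (SE 0.0496), with adjusted p-values of 1.93e-32 and 4.16e-22. The others that rose were Vegfa (mean 249 CPM at day 0 and 266 with DMSO), Kdm3a (58.0 and 78.6) and Adm (0.203 and 1.03). Kdm3a and Adm were named after their values were seen. Adm had the list's largest log2 fold change, 2.33, on 10 to 77 counts in a library. The Vegfa call between DMSO and day 0 was lost in 4 of 15 alternatives. The 7 that fell, named after their values were seen, include the glucose transporter Slc2a1 (log2 fold change -1.21) and the glycolytic enzymes Pgk1 (-0.94) and Ldha (-0.91). The others were Ankrd37 (-1.02), Ero1a (-0.71), Pfkfb3 (-0.45) and Higd1a (-0.28), and the adjusted p-values of the 7 lay between 8.09e-19 and 3.17e-04. With 4-PBA 4 of the 17 were lower and none higher: Bhlhe40 by 0.22, Egln3 by 0.25, Vegfa by 0.18 and Ero1a by 0.16 on the log2 scale, with adjusted p-values between 1.02e-05 and 0.0338. Without DMSO replicate 1 Ldha was called higher, at 0.084, and without DMSO replicate 2 Slc2a1 (-0.28) and Pgk1 (-0.11) were called lower. The Ero1a call was lost in 10 of 15 alternatives, DESeq2 among them, and without DMSO replicate 1 its adjusted p was 0.258. Hif1a itself stood at 227 ± 3.50 CPM at day 0, 209 ± 2.68 with DMSO and 197 ± 0.121 with 4-PBA, lower with DMSO (adjusted p 7.38e-04) and not called between the day 4 groups (log2 fold change -0.085, adjusted p 0.127). Of 13 TGF-beta response genes, 9 rose and 2 fell with DMSO (median log2 fold change 0.57), with the lowest adjusted p-values for Pmepa1 (log2 fold change 1.81, adjusted p 9.55e-33) and Acta2 (1.40, adjusted p 5.28e-29). With 4-PBA Tagln was higher (0.24, adjusted p 0.00769) and Skil, a repressor of the pathway, lower (-0.13, adjusted p 0.0407). Acta2 was at 0.090 with an adjusted p of 0.0606, and it was called higher in 4 of 15 alternatives, at 0.14 without DMSO replicate 1. Tagln and Bhlhe40 share exonic bases with opposite-strand genes, as do Fn1, Pcolce, Hif1a, Eln, Ankrd37, Higd1a and Slc2a1. Pcolce and Hif1a also share bases with protein-coding genes on the same strand, 112 with Fbxo24 and 148 with Gm49321. The counts of all these genes are uncertain to that extent. The Skil call was lost in 10 of 15 alternatives and that of Tagln without 4-PBA replicate 1. Egr1 stood at 119 and 117 CPM at day 0 and was called higher with DMSO, a call lost in 5 of 15 alternatives. It stood at 286 and 274 CPM with DMSO and at 347 and 238 CPM with 4-PBA, so that its 4-PBA libraries enclosed those with DMSO. It was called lower without 4-PBA replicate 1 and higher without 4-PBA replicate 2.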

How the data were processed

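The deposited table holds counts per gene symbol with 1 column per library, per the file header, and the values are whole numbers whose totals differ between libraries, as raw counts do. The submitters' processing notes name genome build GRCm39. The aligner, the counting tool, the annotation and the strand setting are not given in the sources used here. Libraries were directional, per the labels' protocols, and all carried batch 1.

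Counts were fitted with edgeR 4.0.16 in R 4.3.3 over all 6 libraries: filterByExpr by group, TMM scaling, robust glmQLFit with a mean per group, and Benjamini-Hochberg adjustment over 17433 genes, called under 0.05. The fit had 3 residual degrees of freedom and a common biological coefficient of variation of 3.74%. CPM are TMM-scaled. Standard errors are the log2 fold change divided by the square root of F. Replicates differed by more than sampling noise (chi-square per degree of freedom 3.98 to 7.15). Exon lengths and overlaps came from GENCODE M21, which matched 36556 of 43074 symbols, and were used without coordinates. The alternatives were other scalings, filters and thresholds, DESeq2 1.42.0, limma-voom 3.58.1, a fit of 4 libraries, a replicate block and leaving out each library. The fit was tested on simulated data. Figures were drawn with matplotlib 3.10.9.

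Members, gene lists and promoter motifs were chosen with earlier results of these data known. Named genes were the members, P4hb, P4ha3, Col1a1, Col1a2, Egr1, Hif1a and, in each list, the 2 genes with the smallest adjusted p between DMSO and day 0 and the 3 between 4-PBA and DMSO. Ero1a, Adamts14, Adm, Kdm3a and 6 further hypoxia genes were added after their values were seen, to complete counts. Cell type markers were added to check the labels.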

Additional observations from a re-analysis of the deposited data

How the results depend on the processing

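Each count was recomputed under 15 alternatives. The 10 calls among the enzymes between DMSO and day 0 were found in each of them, and between 4-PBA and day 0 there were 9 or 10. Between 4-PBA and DMSO 3 enzymes were called, and 1 at an adjusted p under 0.01. Leaving out 1 library gave 0 to 3 calls, none without 4-PBA replicate 2 and 1 without 4-PBA replicate 1, DMSO replicate 1 or day 0 replicate 1. Over all genes, the 855 calls of that comparison became 424 at an adjusted p under 0.01 and 295 to 1194 without 1 library, fewest without 4-PBA replicate 2 (295) and 4-PBA replicate 1 (341). A group left with 1 library is assumed to vary like the others.

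The replicate block, with the replicate number as a term, gave 10, 3 and 10 enzymes called and 11403, 768 and 11309 genes. The labels do not say that numbers pair libraries, and deviations of same-numbered libraries correlated at 0.0478, -0.106 and -0.0712 across genes. With library size only, 51.5% of calls between 4-PBA and DMSO were higher, against 43.4% with TMM.

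Adm, Kdm3a and the cell type markers were not recomputed. Among the other named genes, direction changed under these alternatives only for genes not called between 4-PBA and DMSO with all libraries. Loxl4 (-0.00052) was at 0.0025 with DESeq2 size factors, 0.0087 with library size only, 0.0029 with the DESeq2 Wald test, and between -0.11 and 0.099 without 1 library, among them 0.000026 without day 0 replicate 1 and 0.045 without DMSO replicate 2. Leaving out 1 library gave Plod1 -0.033 to 0.057, Plod3 -0.051 to 0.078, Loxl2 -0.016 to 0.091, Col1a1 -0.0904 to 0.039, Col1a2 -0.061 to 0.044, Sparc -0.00096 to 0.029, Ankrd37 -0.097 to 0.406, Pgk1 -0.112 to 0.068 and Ldha -0.038 to 0.084 (-0.0042 without 4-PBA replicate 2). P4hb ranged from -0.028 to 0.048. The reversals came without DMSO replicate 2 (Plod1 -0.026, Plod3, P4hb, Ldha) or 4-PBA replicate 2 (Plod1, Plod3 -0.00035, Loxl2, Ldha), without DMSO replicate 1 (Col1a1, Col1a2, Sparc, Pgk1) or without 4-PBA replicate 1 (Ankrd37). Col1a2 was at 0.0137 without 4-PBA replicate 1 and 9.92e-05 with library size only. Egr1 was at -0.24 (adjusted p 0.00179) without 4-PBA replicate 1 and 0.31 (adjusted p 3.20e-05) without 4-PBA replicate 2, called in opposite directions. The causes were not tested.

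With the longest transcript as gene length, Lox held 64.8%, 56.1% and 55.8% of its family at day 0, with DMSO and with 4-PBA, and P4ha1 held 56.7%, 60.5% and 63.5% of its pair. Without 1 library the shares ranged from 65.6% to 65.8%, 56.2% to 56.5% and 55.9% to 56.2% for Lox. Each of these is the share of the library left in its group, already given above, and so no further check. Among the enzymes Loxl4 had the fewest counts and the widest intervals.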

Other observations

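Ratios between paralogs within a library, per exon length, use the same counts and lengths as the family shares and restate them pair by pair. They need no scaling between libraries. Loxl2, the basement membrane oxidase, stood at 0.728 and 0.727 times Loxl3 at day 0, 2.08 and 2.11 times with DMSO, and 2.32 and 2.63 times with 4-PBA. Plod3 stood at 2.36 and 2.22 times Plod2 at day 0, 0.867 and 0.783 times with DMSO, and 0.786 and 0.813 times with 4-PBA. Lox stood at 4.55 and 4.69 times Loxl1 at day 0, 2.07 and 2.01 times with DMSO, and 1.93 and 1.95 times with 4-PBA. P4ha1 stood at 2.63 and 2.63 times P4ha2 at day 0, 3.04 and 3.10 times with DMSO, and 3.51 and 3.46 times with 4-PBA. The size of this last ratio depends on the length chosen: the longest transcript gave P4ha1 56.7% of the pair at day 0, against 72.4%. In these libraries the groups did not overlap for the Loxl2 to Loxl3, Lox to Loxl1 and P4ha1 to P4ha2 ratios. Each of these holds a gene called between 4-PBA and DMSO. The Plod3 to Plod2 ratio of the 4-PBA libraries lay within the range of the DMSO libraries. Levels of single genes did not overlap for 81.9% of all tested genes between DMSO and day 0, and for 45.5% between 4-PBA and DMSO. No such share was computed for ratios, and the differences were not tested beyond the overlap.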
